A study of Mus musculus with 2 samples.

Results

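The genes described here encode the machinery that fuses membrane vesicles with their targets: complexins, synaptotagmins and synaptotagmin-like proteins, the SNARE proteins themselves, the proteins that bind syntaxins, and NSF with its adaptors. They were chosen by gene symbol from the rows of the deposited gene table, which gave 46 genes of 12557, 45 of them protein-coding and 1 a pseudogene. The group was picked with earlier results of these libraries known, and the table itself lists a gene only where at least 1 library reaches 1 RPKM (reads per kilobase of exon, scaled to the size of the library), so the values below are a description and carry no test. Members closest to that limit in their higher library were Syt14 at 1.09 RPKM, Vamp7-ps at 1.10 RPKM and Syt8 at 1.18 RPKM. Of 68 RefSeq protein-coding symbols that fit the naming rule 45 were in the table, and the other 23, among them Cplx1, Snap25, Syt2, Syt7, Vamp1 and Vamp7, were not analysed here.

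RNA was measured in cells sorted from the embryonic mouse sinoatrial node, the pacemaker of the heart, of the ICR strain. Both groups carried Hcn4-CreERT2, a recombinase driven by the pacemaker channel gene Hcn4 and active only after tamoxifen, and Rosa-tdTomato, the red reporter on which the cells were sorted; the Isl1 mutant group had the genotype Isl1f/f and the control group Isl1+/+. Tamoxifen was given at E10.5 and the nodes were taken 36 hours later, with a labelled stage of E12.5. Nodes of a genotype were pooled, cells with the endothelial surface protein CD31 were removed on beads, and tdTomato-positive cells were sorted. The sort selects for cells in which the Hcn4 driver had been active, and markers of other cell types were also measured, as given below. Each group was 1 library, with 110117186 reads behind the control values and 119018888 behind the mutant values. With 1 library per genotype no test was possible, and the interval beside a fold is an exact 95% interval for counting error only, without replicate error. It treats reads as independent, which copies made by PCR are not, so it can be too narrow.

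As a check of the genotypes, Isl1, the gene of a LIM-homeodomain transcription factor, was measured at 7.65 RPKM (control) and 1.52 RPKM (mutant), 5.02-fold lower. Heart muscle markers were abundant, with all 12 listed genes in the table, 9 higher and 3 lower, and summed levels of 14242 and 19913 RPKM. Epicardial markers were higher in the mutant library in 5 of 9 cases, with sums of 121 and 153 RPKM. Pacemaker markers were present in 11 of 12 cases and lower in the mutant library in all 11, with sums of 309 and 161 RPKM. Isl1 itself is among these 11, and its direction was set by the genotype. Tbx18 stands in both the pacemaker and the epicardial list. Red cell markers (12 of 12 lower, sums 418 and 73.3 RPKM), macrophage and white cell markers (9 of 9 lower, sums 45.6 and 9.12 RPKM) and fibroblast markers (11 of 12 lower, sums 789 and 502 RPKM) also differed between the libraries. Fewer cells of a type and less RNA per cell cannot be told apart in such bulk samples. Over all genes the median was -0.18 on the log2(RPKM + 1) scale, so more genes were lower than higher. The ratio of all genes moved with expression level too. When the table was split into 10 bins by the geometric mean of both libraries, the median log2 ratio was -1.30 in the lowest bin and 0.02 in the highest. All members in the lowest bin had a geometric mean under 1 RPKM. Since the table requires 1 RPKM in at least 1 library, such genes have 1 value under it. The lower that mean, the wider the ratio must be, so the median of the lowest bin is not a level effect alone.

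Membrane fusion is driven by SNARE proteins. An R-SNARE on the vesicle pairs with Q-SNAREs on the target membrane, the helices zip into a bundle, and NSF with its SNAP adaptors later takes the bundle apart for reuse. Proteins of the Munc18 family hold syntaxins ready, synaptotagmins bind calcium through C2 domains and trigger release, and complexins bind the half-zipped bundle and both restrain and prime it. Atrial muscle cells use regulated secretion to release natriuretic peptide from granules, and every cell uses other SNARE sets in the Golgi, endosomes, lysosomes and autophagosomes.

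Of the 46 members 24 lay within 1.25-fold between the libraries, beside 43.7% of all genes, and 14 differed by 2-fold or more. Wide ratios were found mainly at low levels, among the members as over the whole table. Of the 12 members that reached 10 RPKM in either library, 10 lay within 1.25-fold, beside 64.2% of all genes at that level. The exceptions were Ykt6 and Snap91, which were at least 2-fold lower; among all genes at that level 3.75% differed by 2-fold in either direction. By a size rule of 2-fold on the log2(RPKM + 1) scale with 5 RPKM reached in either library, 1 of 24 members was higher, Cplx2, and 1 was lower, Ykt6. The same rule called 1.00% of all genes higher and 2.73% lower. Just outside it lay Snap91 at -0.96 and Stx11 at 0.77 on that scale. The median over the 46 members was -0.08 on the log2(RPKM + 1) scale, beside -0.18 over all genes.

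By the plain ratio of the values, 4 of 46 members were higher by 2-fold or more and 10 were lower by as much, beside 3.27% and 14.0% of all genes. With the median ratio of each level bin subtracted these counts became 7 and 4, and the split of members above and below 0 moved from 19 higher and 27 lower to 28 and 18. In the lowest bin the median subtracted is shaped by the 1 RPKM limit, so these shifts are not a level effect alone. The 9 genes that changed side were Napb, Stx4a, Stx6, Stx8, Stx17, Vti1a, Stxbp4, Stxbp6 and Vamp7-ps, all close to equal in the values as deposited. Scaling the libraries by their median ratio or upper quartile moved 3 and 4 genes across, Stx8, Stx17 and Snap47 in both cases and Stxbp4 in the second. Of the 14 members at least 2-fold different, 11 were under 1 RPKM in 1 library. Such genes are in the table only because the other library is higher, and 67.2% of all genes of that kind differed by at least 2-fold, beside 11 of 14 members. Among the 32 members at 1 RPKM or more in both libraries none was 2-fold higher and 3 were 2-fold lower, Ykt6, Snap91 and Stx1a, beside 1.47% and 5.73% of all such genes.

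**Figure D1:**
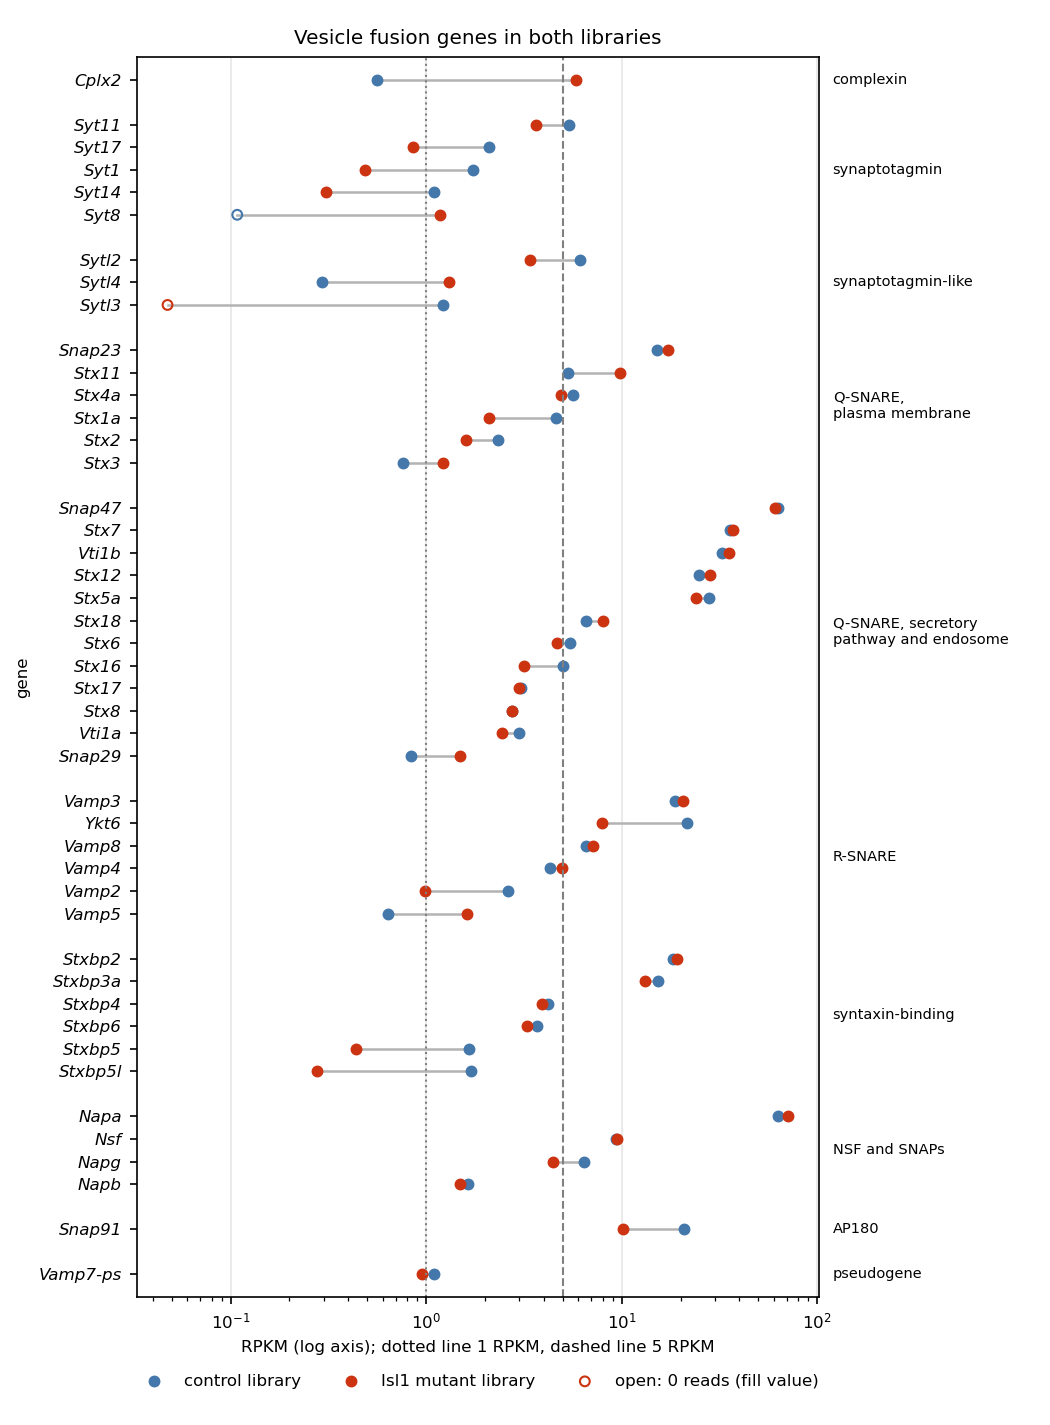
RPKM of 45 vesicle fusion genes (log axis) in the control library (blue) and the Isl1 mutant library (red), 1 row per gene, grouped by role; a grey line joins both values of a gene and open circles mark 0 reads. Pairs near the right edge nearly coincide, apart from Ykt6 and Snap91, while wide pairs have 1 value under the dotted line at 1 RPKM, Stx1a being the other exception.

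Cplx2, the only complexin in the table, differed most of the 44 members with reads in both libraries. Cplx2 (chromosome 13, 54472713 to 54485278, plus strand, mm9) stood at 0.564 RPKM (control) and 5.87 RPKM (mutant). Behind these values were at least 308 and 3463 reads over 4958 bases of exon. The value was 10.4-fold higher in the mutant library, with an interval of 9.26 to 11.7. In its level bin no other of the 1255 genes had a higher ratio. However, Cplx2 is in the table, and reaches the 5 RPKM of the size rule, only through its mutant value. No other gene of the table overlaps Cplx2.

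The 250 bases upstream of the annotated start are printed for Cplx2 and Ykt6, the members called by the size rule, and for Stx1a, chosen as the syntaxin of regulated release although other members stood further out at their level. The sequences are from RefSeq on GRCm38.p6, another build than the mm9 of the deposited table, and run 5′ to 3′ on the gene's strand. Capitals mark TAAT, or ATTA for the other strand, the core that homeodomain proteins as a class bind.
Cplx2: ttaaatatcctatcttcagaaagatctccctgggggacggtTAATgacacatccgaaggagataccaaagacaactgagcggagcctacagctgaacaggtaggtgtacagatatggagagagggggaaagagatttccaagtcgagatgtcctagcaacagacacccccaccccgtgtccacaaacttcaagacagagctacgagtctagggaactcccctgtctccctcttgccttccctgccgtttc
Ykt6: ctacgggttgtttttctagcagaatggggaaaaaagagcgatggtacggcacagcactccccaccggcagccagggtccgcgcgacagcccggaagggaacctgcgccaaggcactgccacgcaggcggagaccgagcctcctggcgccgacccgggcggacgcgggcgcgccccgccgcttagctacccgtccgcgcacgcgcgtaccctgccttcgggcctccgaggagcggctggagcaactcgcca
Stx1a: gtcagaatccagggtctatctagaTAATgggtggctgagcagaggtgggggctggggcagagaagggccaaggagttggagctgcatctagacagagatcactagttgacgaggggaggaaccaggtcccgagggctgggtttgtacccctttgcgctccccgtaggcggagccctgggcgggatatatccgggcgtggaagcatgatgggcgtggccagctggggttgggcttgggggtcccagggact
The windows are chr13:54302306-54302555, chr11:5955508-5955757 and chr5:135023232-135023481, all on the plus strand. The core occurs once in the Cplx2 window, 209 bases before the start, once in the Stx1a window, 226 bases before it, and in the Ykt6 window these letters do not occur. Among 32851 windows of that length 54.9% hold the core, beside 14 of the 46 windows of members (30.4%). Counted by gene, 12 of the 38 members with a window under their own symbol hold it in at least 1 window (31.6%). The GC content of the windows was 50.8% for Cplx2, 70.0% for Ykt6 and 62.0% for Stx1a, beside a median of 52.4% over all windows. A match of so short a core is a description of the letters only.

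Synaptotagmins were low in both libraries, and 4 of 5 were lower in the mutant library. The median log2 ratio of all genes was also below 0 in their level bins, from -1.30 to -0.25. Syt11, a synaptotagmin that does not bind calcium, was the most abundant, at 5.40 RPKM (control) and 3.65 RPKM (mutant), 1.48-fold lower (interval 1.40 to 1.56). Syt1, the fast calcium sensor of transmitter release, was at 1.74 RPKM (control) and 0.490 RPKM (mutant), 3.56-fold lower (interval 2.83 to 4.50; at least 326 control and 99 mutant reads). Syt14 went from 1.09 to 0.307 RPKM and Syt17 from 2.09 to 0.855 RPKM. The ratios of Syt1 and Syt14 are common ones at their level: 424 and 422 of the 1256 genes in the lowest level bin had lower ratios. In that bin the 1 RPKM limit of the table sets a least size for the ratios. Syt8 had 0 control reads and at least 17 mutant reads, over 121 bases of exon, which is at least 5.24-fold higher against a floor of 3 control reads. By the deposited values, 39 genes of the same bin had a higher ratio than Syt8.

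The synaptotagmin-like genes, whose proteins link Rab27 on secretory vesicles to the membrane, differed in both directions. Sytl4, which encodes granuphilin of dense-core granules, stood at 0.294 RPKM (control) and 1.31 RPKM (mutant), 4.47-fold higher (interval 3.66 to 5.51). It is in the table only through its mutant value, and 82 of the 1256 genes in the lowest level bin had a higher ratio. Sytl2 went from 6.11 to 3.41 RPKM, 1.79-fold lower, but rested on as few as 68 and 41 reads over 101 bases, and its interval ran from 1.2 to 2.71. Sytl3 had at least 37 control reads and 0 mutant reads, over 275 bases of exon. This is at least 13.3-fold lower against a floor of 3 mutant reads. The span of Sytl3 overlaps that of Ezr on the opposite strand by 3 bases.

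Among Q-SNAREs of the plasma membrane, 3 of 6 were higher and 3 lower, and their summed level was 33.7 RPKM (control) and 36.9 RPKM (mutant). Snap23, the widely expressed relative of neuronal SNAP-25, was the most abundant in both, at 15.1 and 17.3 RPKM. Stx11, a syntaxin without a membrane anchor that is best known from cytotoxic lymphocytes, stood at 5.34 RPKM (control) and 9.78 RPKM (mutant). It was 1.83-fold higher (interval 1.72 to 1.95; at least 1453 control and 2877 mutant reads), and 16 of the 1256 genes in its level bin had a higher ratio. The marker lists hold no gene particular to lymphocytes, and the cell source of the Stx11 reads was not tested.

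Stx1a, the syntaxin of neurotransmitter and hormone release (chromosome 5, 135499352 to 135526970, plus strand, mm9), went from 4.60 to 2.10 RPKM. It was 2.19-fold lower (interval 1.98 to 2.43), and 77 of 1256 genes at its level had a lower ratio. Stx4a, the syntaxin through which muscle and fat cells insert glucose transporters, was 1.15-fold lower (5.63 to 4.90 RPKM). Stx2 was 1.47-fold lower (2.33 to 1.59 RPKM), and for Stx3 (0.759 to 1.22 RPKM) the counting interval of the ratio included no difference.

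The naming rule gave 12 Q-SNAREs of the secretory pathway, endosomes and lysosomes, which every cell needs. They summed to nearly the same level, 210.9 RPKM (control) and 211.4 RPKM (mutant). None was 2-fold different, 5 were higher and 7 lower. Snap47 stood at 63.2 and 61.1 RPKM, Stx7 of late endosomes at 35.7 and 37.1 RPKM, its partner Vti1b at 32.6 and 35.3 RPKM, and Stx12 of recycling endosomes at 24.97 and 28.3 RPKM. Stx5a, the syntaxin of traffic between endoplasmic reticulum and Golgi, went from 27.8 to 24.1 RPKM, and Stx18 of the endoplasmic reticulum from 6.57 to 8.01 RPKM. The widest ratios in this class were Snap29, 1.80-fold higher (0.833 to 1.5 RPKM, interval 1.48 to 2.19), and Stx16 of the trans-Golgi network, 1.59-fold lower (5.04 to 3.17 RPKM, interval 1.49 to 1.70). Stx6 and Vti1a, which act with Stx16, were 1.17-fold and 1.22-fold lower. Stx17, the syntaxin of autophagosomes, stood at 3.07 and 3.0 RPKM and Stx8 at 2.76 and 2.74 RPKM, both with intervals that include no difference.

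R-SNAREs were divided. Ykt6, a lipid-anchored R-SNARE of the Golgi, endosomes and autophagosomes (chromosome 11, 5855696 to 5867783, plus strand, mm9), stood at 21.6 RPKM (control) and 7.96 RPKM (mutant). It was 2.72-fold lower (interval 2.59 to 2.84; at least 6351 control and 2528 mutant reads over 2669 bases), and 6 of the 1255 genes in its level bin had a lower ratio. No other gene of the table overlaps it. Vamp3, or cellubrevin of recycling endosomes, the other abundant gene of these 6, was close to equal at 18.7 and 20.5 RPKM. Ykt6 made up 39.7% of the summed R-SNARE level in controls and 18.5% in mutants, and Vamp3 34.3% and 47.6%, so the order of these genes was exchanged.

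Vamp2, the synaptobrevin that pairs with Stx1a in regulated release and with Stx4a in glucose transporter insertion, was at 2.63 RPKM (control) and 0.987 RPKM (mutant), 2.67-fold lower (interval 2.38 to 3.0; at least 1015 control and 411 mutant reads). It is in the table only through its control value, and 81 of the 1255 genes at its level had a lower ratio. Vamp8 of late endosomes stood at 6.60 and 7.11 RPKM and Vamp4 of the trans-Golgi network at 4.31 and 4.94 RPKM. Vamp5, a relative found mainly in skeletal and heart muscle, went from 0.637 to 1.61 RPKM, 2.53-fold higher. It rested on as few as 15 and 41 reads, with an interval from 1.37 to 4.92. It is in the table only through its mutant value, and 20 of the 1256 genes in its level bin had a higher ratio. Vamp5 and Vamp8 are neighbours on the minus strand of chromosome 6, 4755 bases apart, and their ratios were unlike. Vamp7-ps, a processed pseudogene, stood at 1.10 and 0.951 RPKM, and its reads cannot be told apart from those of Vamp7 where the sequences match.

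**Figure D2:**
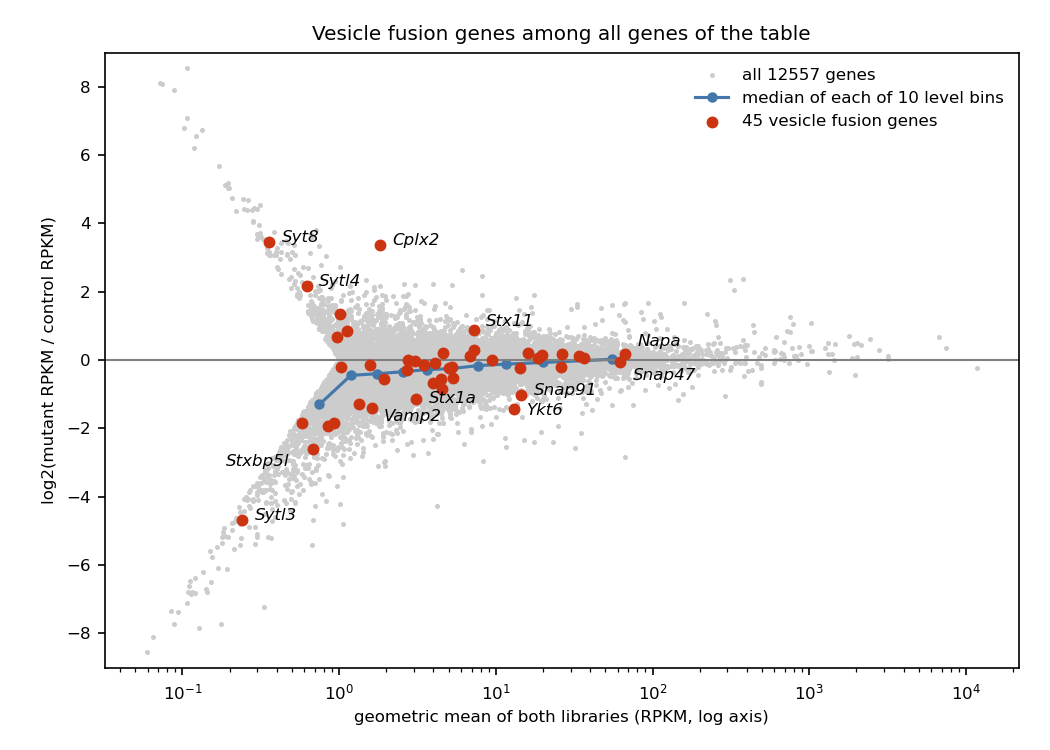
Log2 ratio of mutant to control RPKM against the geometric mean of both libraries (RPKM, log axis) for all 12557 genes (grey), the medians of 10 level bins (blue) and 45 vesicle fusion genes (red). Cplx2 stands above the genes of its level and Ykt6 and Snap91 near the lower edge of theirs, while Syt8 and Sytl3 lie on the arms formed by genes with almost no reads in 1 library.

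Proteins that bind syntaxins split into equal and lower genes. The Munc18 genes Stxbp2 and Stxbp3a were close to equal, Stxbp2 at 18.3 and 19.1 RPKM and Stxbp3a, the partner of Stx4a, at 15.4 and 13.2 RPKM. Both tomosyn genes, whose proteins occupy syntaxins in place of an R-SNARE and so hold back fusion, were lower. Stxbp5 was at 1.67 RPKM (control) and 0.436 RPKM (mutant), 3.82-fold lower (interval 3.20 to 4.59), and Stxbp5l at 1.70 and 0.277 RPKM, 6.13-fold lower (interval 4.99 to 7.58; at least 618 control and 109 mutant reads). In their level bin, where the median ratio was itself -1.30, 384 and 233 of 1256 genes had lower ratios. Stxbp4 and Stxbp6, or amisyn, differed by 1.07-fold and 1.11-fold.

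Of the genes that take SNARE bundles apart, the most abundant ones were close to equal. Napa, which encodes alpha-SNAP, was measured at 62.9 RPKM (control) and 70.9 RPKM (mutant), and with Snap47 it was the most abundant of the 46 members. Nsf, the gene of the ATPase, stood at 9.40 and 9.43 RPKM, with an interval for the ratio of 0.974 to 1.03. Napg, or gamma-SNAP, was 1.45-fold lower (6.44 to 4.45 RPKM, interval 1.34 to 1.56), and Napb differed within counting error. In all, 8 of the 44 counting intervals of members included no difference.

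Snap91 fits the naming rule but is no SNARE: it encodes AP180, which gathers clathrin to retrieve vesicle membrane after fusion at synapses. Snap91 (chromosome 9, 86659236 to 86775489, minus strand, mm9) was at 20.7 RPKM (control) and 10.2 RPKM (mutant), 2.04-fold lower (interval 1.98 to 2.11; at least 11231 control and 5946 mutant reads). Of the 1255 genes in its level bin, 18 had a lower ratio.

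**Figure D3:**
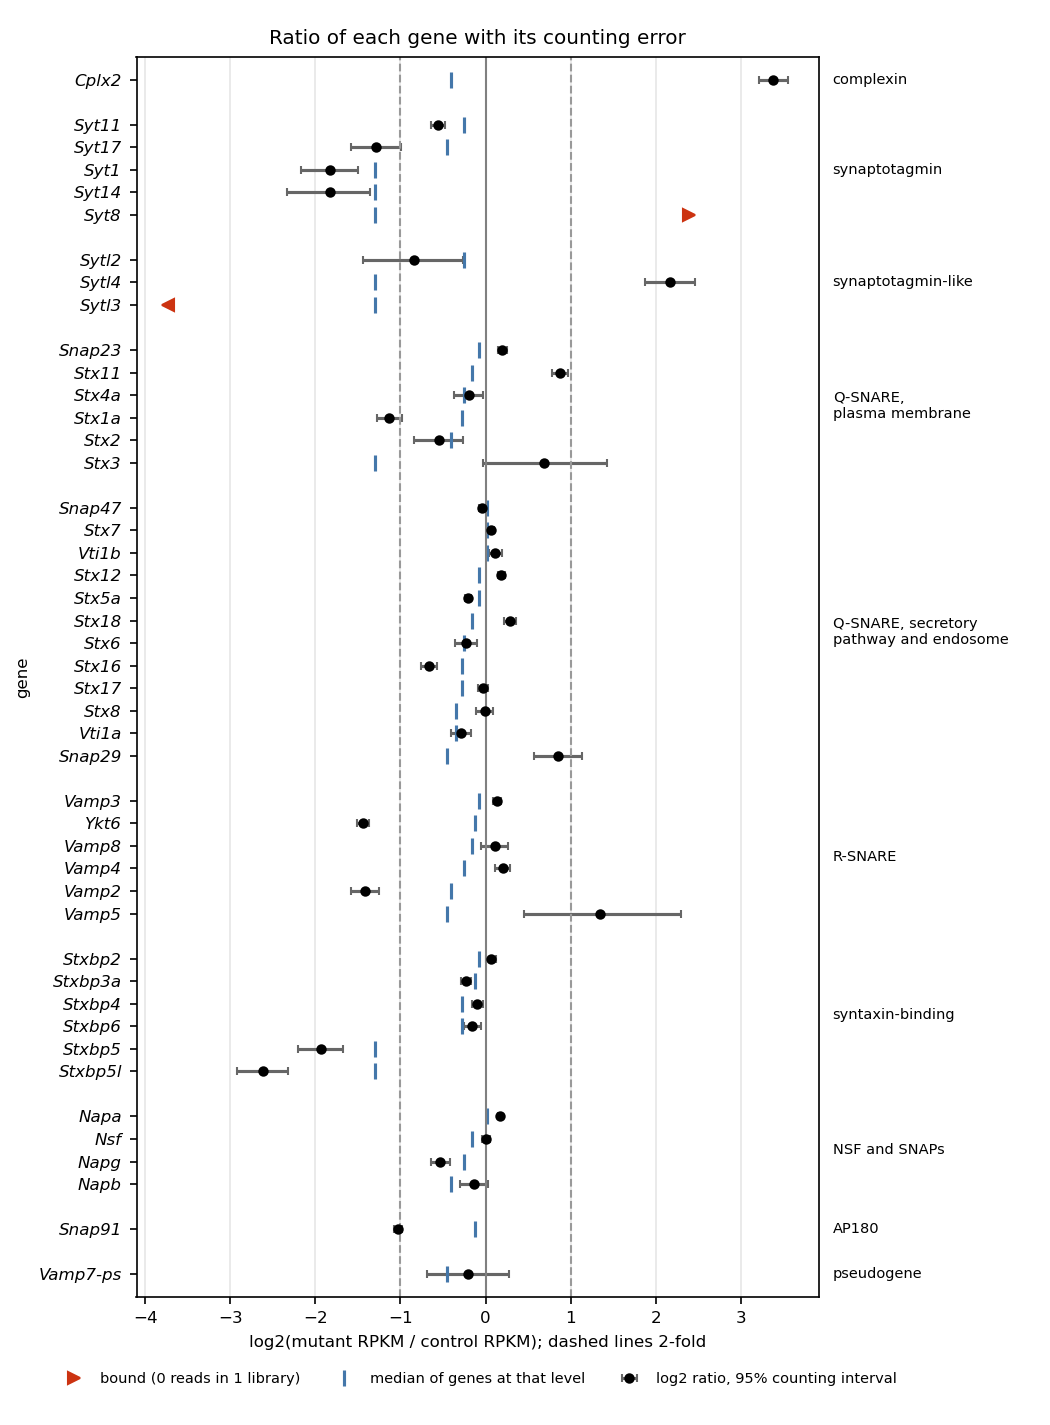
Log2 ratio of mutant to control RPKM for 45 vesicle fusion genes, each with its exact 95% counting interval (bars), the median ratio of all genes in its level bin (blue ticks) and bounds for genes with 0 reads in 1 library (red arrows). Cplx2 and Sytl4 lie far above their ticks, Ykt6, Snap91, Stx1a and Vamp2 below theirs, and Syt1, Syt14 and Stxbp5 nearer to theirs than to 0. Sytl4, Syt1, Syt14 and Stxbp5 are in the lowest level bin, where the 1 RPKM limit of the table sets a least size for the ratios.

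Markers of neurons and neuroendocrine cells are given beside Syt1, Stx1a, Vamp2 and Snap91, since those genes are best known from such cells. Of 25 listed markers 15 were in the table, 5 higher and 10 lower, and their summed levels were 58.2 RPKM (control) and 54.3 RPKM (mutant). Their median was -0.07 on the log2(RPKM + 1) scale, beside -0.18 over all genes. The most abundant, Uchl1, stood at 20.3 and 18.4 RPKM. By 2-fold or more, 4 of the 15 were lower and 2 were higher. Tubb3, the neuronal tubulin gene, went from 2.89 to 0.610 RPKM and Th, the gene of catecholamine synthesis, from 1.54 to 0.404 RPKM. Elavl3 had as few as 16 control reads and 0 mutant reads. The neurofilament gene Nefl went the other way, from 3.36 to 7.65 RPKM, as did Hand1, from 1.26 to 2.78 RPKM. Hand1 is also a transcription factor gene of the developing heart, so it is not particular to neurons. Ddc was close to equal, at 4.09 and 3.96 RPKM. These genes were picked after their values were seen. Of Schwann and neural crest markers 2 of 9 were in the table, both lower. The part of these cells in the values of the vesicle fusion genes was not tested.

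The other genes of the pathway were taken from 6 lists, with 66 genes in the table. By the size rule 0 of the 39 members at 5 RPKM or more were higher and 2 were lower, Unc13b and Pam, beside 1.00% and 2.73% of all genes by that rule. Unc13b, which encodes the priming factor Munc13-2, went from 5.27 to 1.92 RPKM, 2.74-fold lower. Pam, the gene of the amidating enzyme that is a main membrane protein of atrial secretory granules, went from 40.4 to 9.44 RPKM, 4.28-fold lower. Among other members of the granule list, Corin, the gene of the protease that activates the atrial peptide, stood at 29.2 and 25.5 RPKM, Cpe, the gene of a prohormone carboxypeptidase, at 16.5 and 11.5 RPKM, and Furin at 4.71 and 2.31 RPKM. All 5 measured genes of the 15 on the granule list were lower, with a median of -0.79 on the log2(RPKM + 1) scale, beside -0.18 over all genes. The proteases of Corin and Furin are not confined to granules, and the granule genes Chga, Chgb and Scg2 were not in the table.

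The medians of the other lists, given here as deposited, depended in part on the level trend. With it removed they were 0.11 for SNAREs outside the naming rule, 0.11 for C2-domain genes and 0.06 for synaptic vesicle membranes, while those of the priming, exocyst and granule lists were still below 0. The list of SNAREs outside the naming rule, which also holds Munc18 relatives and taxilin genes, was measured in full, 16 of 16. Of its genes 6 were higher and 10 lower, with a median of -0.11. Their most abundant genes were Scfd1, the Munc18 relative of Golgi traffic, at 36.8 and 42.7 RPKM, and the Golgi SNARE gene Gosr2 at 22.1 and 20.5 RPKM. Genes of synaptic vesicle membranes, 13 of 21 measured, had a median of -0.07, with Scamp3 at 35.6 and 37.4 RPKM and the synapsin gene Syn3 at 29.7 and 23.7 RPKM. Genes of priming, docking and the active zone, 16 of 30 measured, were lower in 14 cases with a median of -0.29, beside -0.18 over all genes. Among them Rab3a, the small GTPase gene of synaptic vesicles, differed by only 1.13-fold (14.2 to 12.6 RPKM). Subunits of the exocyst, which tethers vesicles at the plasma membrane, had a median of -0.43 over 8 of 9 genes, with Exoc7 at 25.9 and 27.2 RPKM and Exoc4 at 12.7 and 8.94 RPKM. Other C2-domain fusion genes, 8 of 12 measured, had a median of -0.30, and Doc2g, the most abundant of them, was 1.62-fold higher (13.1 to 21.2 RPKM).

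**Figure D4:**
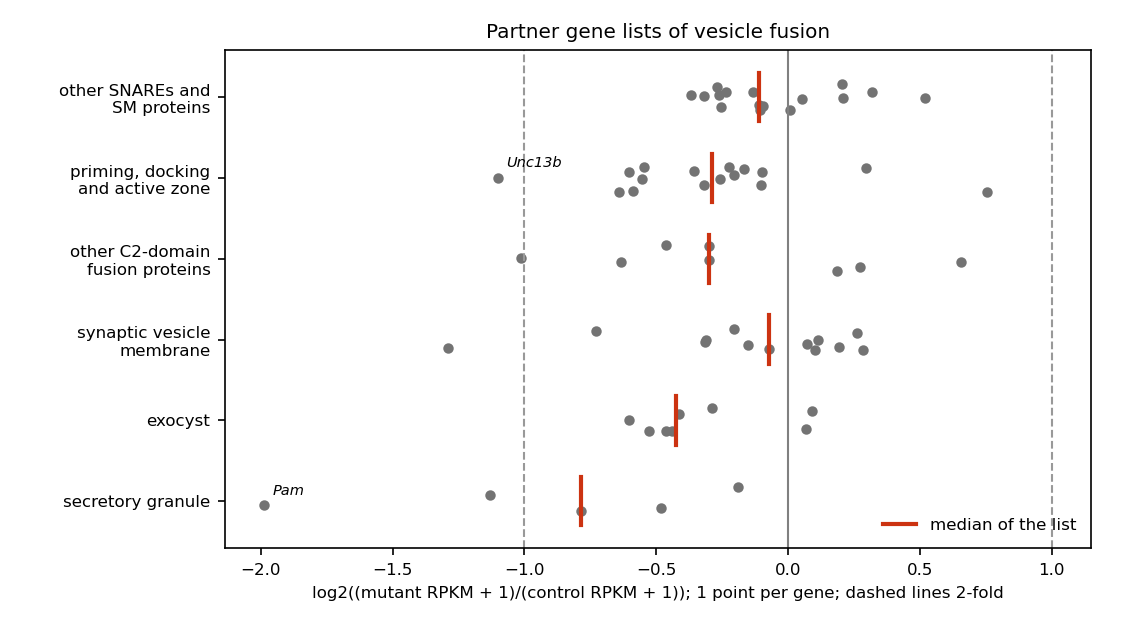
Log2((mutant RPKM + 1)/(control RPKM + 1)) of each gene (points) in 6 lists of vesicle fusion partners, with list medians (red bars) and dashed lines at 2-fold. As deposited the list medians run from -0.07 for synaptic vesicle membranes to -0.79 for secretory granules, where Pam lies farthest to the left; with the level trend removed those of other SNAREs, C2-domain genes and synaptic vesicles lie above 0.

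The library kit is not stated to keep strand, and 8 members overlap another gene of the table, so reads from shared stretches cannot be separated. The widest overlaps were those of Stx18 with Nsg1, of Syt11 with 5830417I10Rik and Gon4l and of Snap23 with Zfp106, each on the opposite strand.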

How the data were processed

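Per the submitters' processing notes, Trim Galore, FastQC, TopHat2, Bowtie2 and mm9 were used, versions not stated. The program behind the table was not given in the sources used here. Per gene and library the deposited table holds 1 value over constitutive exons, per the file headers, and names no unit. The values by the authors were taken as RPKM because, for 288 single-exon small RNA genes, value times length stepped in whole reads (within 0.01) in 288 control and 280 mutant cases, the other 8 at a fill value. The same steps gave the library totals. The fill, worth 1.44 control or 1.56 mutant reads, was read as 0 reads and stands in 35 control and 71 mutant values. The authors' deposited log2 fold change, and their signed fold, a score, were not used further.

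For 12540 genes (99.9%), and all 46 members, the shortest exon length that makes both values whole reads (within 1e-04) was taken, so true reads can be a multiple of those given and intervals narrower. Intervals of the ratio are exact conditional binomial (Clopper-Pearson). Values were compared as deposited. Bounds use a floor of 3 reads in the empty library. No test, set test or replicate error was possible with 1 library per genotype. Members and lists were chosen with earlier results of these data known. The values of 1 member, which stays in the counts, are not reported here. Genes named are the other members, list genes that meet the size rule and up to 4 of the most abundant of each list, and a few markers. In the lists, the entry of highest mean stood for a repeated symbol. The 6 pathway and 9 marker lists leave out module members. Endothelial and epicardial markers had 7 of 8 and 4 of 9 measured genes lower. Python 3.11.15, pandas 2.3.3 and SciPy 1.17.1 were used, and scripts were tested on simulated data.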

Additional observations from a re-analysis of the deposited data

How the results depend on the processing

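No paired analysis was possible because each genotype has 1 library. Depth limits Syt8, Sytl3, Vamp5, Sytl2 and Stx3, which rest on few reads. The 24 members at 5 RPKM or more held 1 higher and 1 lower gene with values scaled by the median ratio of genes that reach 5 RPKM in both (-0.07, log2), by upper quartiles (-0.12) or with the level trend removed. The member counts changed elsewhere: the count higher was 0 with a pseudocount of 5, 0 at a floor of 10 RPKM and 2 at a threshold of 1.5-fold, and the count lower was 2 with a pseudocount of 0.1, 3 with no filter and 3 at 1.5-fold. In alternatives chosen after seeing the data, the plain ratio with no filter gave 4 higher and 10 lower, and restricted to genes that reach 1 RPKM in both it gave 0 and 3. The median over members was 0.10 with the level trend removed, 0.01 with upper-quartile scaling and 0.06 at a floor of 10 RPKM, so its sign depends on these choices. With the trend removed the median log2 ratio of the priming list was -0.065, that of the exocyst -0.21 and that of the granule list -0.56, while those of other SNAREs (0.11), C2-domain genes (0.11) and synaptic vesicles (0.06) turned positive. The synaptic vesicle median was also positive with upper-quartile scaling (0.03) and at 10 RPKM (0.11), as was the C2-domain median at 10 RPKM (0.66).

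Of the 39 pathway genes at 5 RPKM or more, 1 was higher at 1.5-fold, and 1 was lower with the trend removed, with a pseudocount of 5 or at a floor of 10 RPKM, 5 with no filter; the plain ratio gave 1 higher and 10 lower. Over all genes the count of 64 higher became 36 with a pseudocount of 5, 139 with no filter, 239 at 1.5-fold, 411 by plain ratio and 154 with 1 RPKM in both. The count of 174 lower became 102 with the trend removed, 271 and 36 with pseudocounts of 0.1 and 5, 503 with no filter, 70 at 10 RPKM, 756 at 1.5-fold, 1758 by plain ratio and 599 with 1 RPKM in both. The median over all genes was -0.12 and -0.078 under both scalings, 0 with the trend removed by construction, -0.21 and -0.10 with the pseudocounts of 0.1 and 5, -0.063 at 10 RPKM and -0.19 as a mean. Apart from fewer genes under a stricter filter, the cause of these shifts was not tested. Of the 14 members at least 2-fold different by plain ratio, 0 changed sign with the trend removed. Under either scaling (-0.07 and -0.12, log2) or with 1 RPKM added to each value, none of these could change sign, so those settings show nothing about it. With entries of a symbol summed the counts stayed at 4 higher and 10 lower.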
